A study of Mus musculus with 12 samples.

Results

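Genes of the folding machinery of the endoplasmic reticulum (ER) and of the unfolded protein response were examined as a set of 33 genes among the 56748 genes counted in an RNA-seq experiment on livers from mice fasted for 24 h. The set holds the genes of the count table that carry the symbols of the lumenal chaperones Hspa5, Hsp90b1 and Hyou1 with their partners, the disulfide isomerases, the lectin chaperones, the genes of ER-associated degradation, the IRE1 branch, 2 subunits of the translocon machinery and Wfs1. There were 4 livers of each of 3 genotypes, all from fasted mice. SKO livers were labelled as lacking Cpt2, which encodes an enzyme that mitochondria need to oxidise long-chain fatty acids. DKO livers were labelled as lacking Cpt2 and the stress-induced transcription factor Atf3. The controls, called WT here, were labelled as floxed for CPT1A, 1B and 2, while the study describes controls for its RT-qPCR that were floxed for Atf3 and Cpt2. The liver KOs came from floxed mice bred to Albumin-Cre mice, so Cre was driven by the promoter of albumin, which is made chiefly by hepatocytes, and deletion in single cell types was not tested. The labels give no age, sex or batch for any liver, and the study describes the mice used for RNA-seq as males.

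The ER lumen is where secreted and membrane proteins fold, with the help of chaperones, of enzymes that form disulfide bonds and of lectins that bind glycans, and the hepatocyte secretes much of the protein of the plasma through it. When unfolded proteins accumulate, the membrane sensors IRE1 (Ern1), ATF6 and PERK (Eif2ak3) signal to the nucleus, where spliced XBP1 and cleaved ATF6 are known to activate chaperone and degradation genes, and PERK slows translation and raises ATF4. Proteins that fail to fold are drawn back to the cytosol for destruction, which is called ER-associated degradation. The counts were made per gene, so they do not separate spliced from unspliced Xbp1.

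Genes of this response are known for the ER stress response element (ERSE), CCAAT followed after 9 bases by CCACG, which was searched on both strands from 250 bases before to 50 bases after each start site in RefSeq promoters of GRCm38.p6. Entries were found for 29 of the 33 members. Of these, 10 genes held the ERSE, against 0.119% of all 32851 promoters. ERSE-II, ATTGG followed after 1 base by CCACG, was present in Herpud1 and Dnajb11 and in 0.0365% of all promoters, and the letters TGACGTGG of the XBP1-type element were found in 0 of the 29 genes and in 0.676% of all promoters. The whole promoter of Hspa5, the gene of the chaperone BiP, is shown first (chr2:34771840-34772139, + strand), with both parts of the ERSE in capitals.
Hspa5: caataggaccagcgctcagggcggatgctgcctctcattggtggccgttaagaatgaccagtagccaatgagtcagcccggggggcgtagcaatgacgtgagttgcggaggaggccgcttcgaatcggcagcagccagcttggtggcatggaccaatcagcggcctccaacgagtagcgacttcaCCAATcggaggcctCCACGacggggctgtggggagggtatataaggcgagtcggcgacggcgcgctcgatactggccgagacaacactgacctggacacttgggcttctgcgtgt
The 11 ERSE matches of the 10 genes began 44 to 212 bases before the start site. For the genes described below, the match is shown with 10 bases on each side, in the orientation of the gene and with both parts in capitals, so that CGTGG and ATTGG mark a match on the other strand. The windows lie at chr10:86705628-86705666 and chr10:86705523-86705561 (- strand) for Hsp90b1, chr8:84847065-84847103 (- strand) for Calr, chr11:50325790-50325828 (- strand) for Canx, chr14:118937817-118937855 (+ strand) for Dnajc3, chr12:17266481-17266519 (+ strand) for Pdia6, chr13:12565672-12565710 (+ strand) for Ero1b, chr15:88819510-88819548 (+ strand) for Creld2, chr10:75893232-75893270 (+ strand) for Derl3 and chr19:6046522-6046560 (+ strand) for Syvn1.
Hsp90b1, distal: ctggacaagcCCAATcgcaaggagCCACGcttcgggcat
Hsp90b1, proximal: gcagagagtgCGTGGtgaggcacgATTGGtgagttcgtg
Calr: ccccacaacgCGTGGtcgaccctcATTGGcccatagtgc
Canx: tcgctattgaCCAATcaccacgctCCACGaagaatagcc
Dnajc3: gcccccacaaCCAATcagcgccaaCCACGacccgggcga
Pdia6: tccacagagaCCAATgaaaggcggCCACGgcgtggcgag
Ero1b: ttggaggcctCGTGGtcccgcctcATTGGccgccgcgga
Creld2: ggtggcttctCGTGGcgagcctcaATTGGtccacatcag
Derl3: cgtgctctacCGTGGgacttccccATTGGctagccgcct
Syvn1: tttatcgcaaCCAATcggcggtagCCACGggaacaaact
A match describes the letters of the window and is not a measurement of binding.

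The counts on genes summed to 14710304 to 20030055 per liver, and a gene without counts may hold up to 3 counts by chance, at most 0.196 CPM, which covers counting error only. CPM values are counts scaled to a common library total with edgeR's TMM factors over the 12 livers. Cpt2 itself had 235 ± 25.0, 125 ± 22.3 and 118 ± 11.3 CPM (mean ± SD, n = 4) in the WT, SKO and DKO groups. Atf3 ranged from 1.11 to 2.16 CPM in the WT group and from 14.5 to 53.4 in the SKO group, and DKO livers 1 to 3 still had 7.92 to 13.6 CPM of counts on the Atf3 gene while DKO liver 4 had 0.270. Counts per gene do not show which exons the reads came from. SKO liver 3 and DKO liver 4 had 18063 and 20855 counts of Xist, which is transcribed from the inactive X chromosome. Their Y-linked genes had 2 and 0 counts. The other 10 livers, all WT livers among them, had at most 19 of Xist and at least 2741 Y-linked. SKO liver 3 and DKO liver 4 thus had the counts of females, while the study describes males. With no such WT liver, an effect of sex in them cannot be told apart from one of genotype. DKO liver 4 also stood apart from the other DKO livers, with 220 to 261 as the chi-square per degree of freedom against each of them and 31.1 to 37.4 among the others. A member's value without these livers is therefore given where it gained or lost a call. Leaving out DKO liver 4 also leaves out the only DKO liver with less Atf3 than the WT livers. The hepatocyte marker genes Alb, Ttr, Apoa1, Apob, Cps1 and Serpina1e were abundant in all livers, and their summed level lay at 82417 to 102997 CPM for the WT livers, 45771 to 70705 for the SKO livers and 44716 to 94731 for the DKO livers, the highest DKO value being that of liver 4. Whole livers were measured, in which fewer cells of a type and less RNA per cell cannot be told apart.

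Transcripts of most lumenal chaperones, disulfide isomerases and lectins were less abundant in SKO than in WT livers, while most degradation genes and the IRE1 branch did not pass the test. With edgeR's quasi-likelihood test at an adjusted p-value under 0.05, 17 of the 33 members were lower, 1 was higher and 15 were not called in SKO livers. Among all 14261 genes tested, 32.1% were called in either direction, 16.7% higher and 15.4% lower. Scaled by library size alone, 15 members were lower and 4 were higher, and the median of all genes itself moved from 0.03 to 0.20. The median log2 fold change of the members was -0.52, with a range from -1.49 to 0.52, against 0.03 over all genes tested. Without SKO liver 3 the median was -0.63, with 19 members lower and 1 higher. In that fit 15.2% of all genes were lower and 17.3% higher. In 18 members the 4 SKO livers all lay below the 4 WT livers, and in 2 they all lay above. Of all genes tested, 16.6% lay apart below and 16.4% above.

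In DKO livers 11 of the 33 members were lower and 0 were higher than in WT livers by the same test. DESeq2 called 15, all lower, and its share over all genes is not given here. At an unadjusted p-value under 0.05, 18 were lower and 1 was higher. Over all genes, 29.4% passed it in either direction. Of all 14448 genes tested, edgeR called 10.5% in this comparison, 6.06% higher and 4.39% lower. The median of the members was -0.58, with a range from -3.13 to 0.33, and that of all genes was 0.03. The number of calls turned on single livers. Without DKO liver 4 it was 21 lower and 2 higher with a median of -0.72, and 35.9% of all genes were then called. Without WT liver 1, 2, 3 or 4 it was 6, 5, 7 and 7, beside 1.79, 1.63, 4.81 and 2.50% of all genes called. Without DKO liver 1 or 3 it was 6 each, beside 2.73 and 1.95% of all genes. Both comparisons use the same WT livers, so they are not independent of each other.

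Relative to the mean of the WT livers, the median log2 level over the 33 members was -0.08, 0.06, 0.09 and -0.07 in the WT livers, -0.65, -0.72, -0.43 and -0.57 in the SKO livers and -0.88, -0.44, -0.89 and -0.24 in the DKO livers. Each of the 8 KO livers was below each WT liver in this median, and the members below the lowest WT liver numbered 22, 22, 24 and 22 in the SKO livers and 25, 23, 26 and 20 in the DKO livers. Those above the highest WT liver numbered 3, 6, 4 and 5 in the SKO livers and 3, 3, 3 and 2 in the DKO livers. Of all genes tested, 32.1 to 36.5% were below the lowest WT liver in an SKO liver and 27.8 to 33.6% in a DKO liver. Correspondingly, 31.6 to 36.3% and 26.8 to 35.1% were above the highest. SKO liver 3 and DKO liver 4, the livers with Xist counts, had the highest medians of their groups. Their summed levels of hepatocyte markers were also the highest of their groups, and the part of this in the result was not tested.

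**Figure D1:**
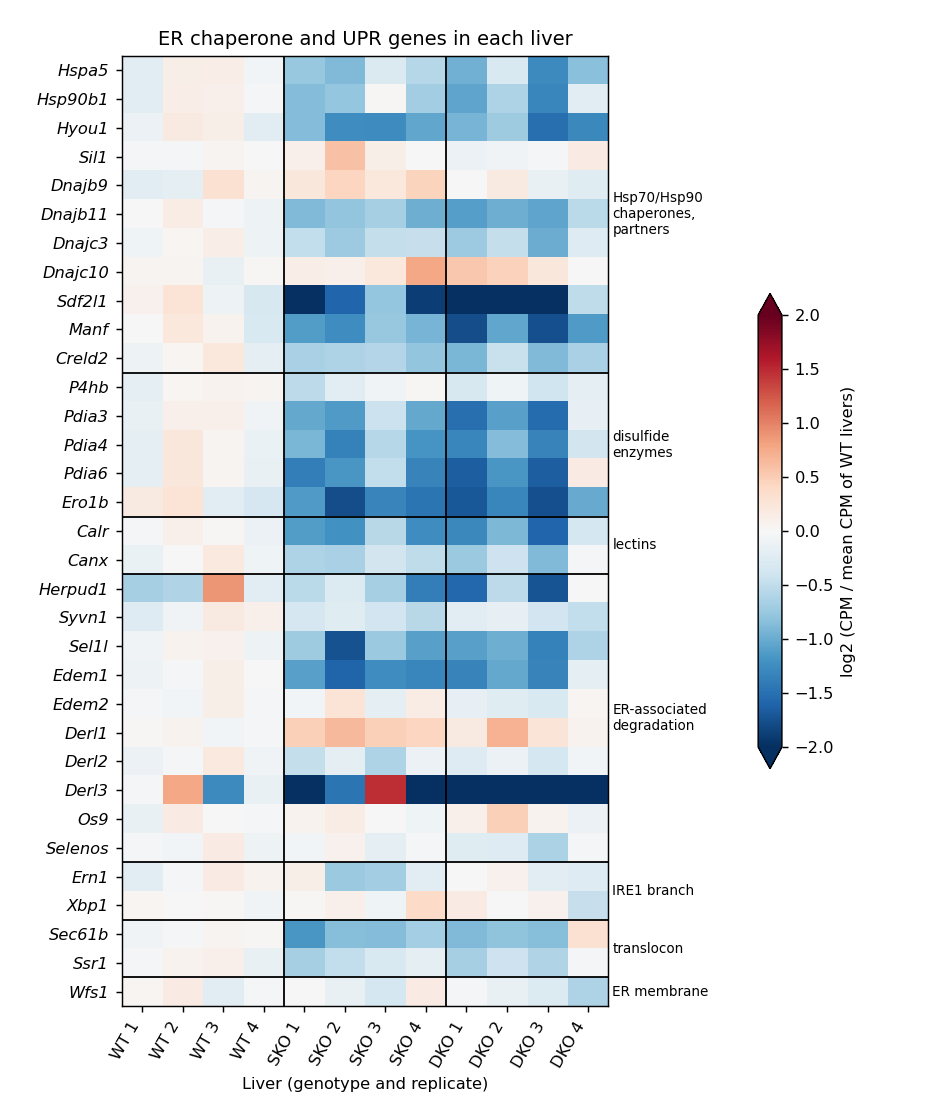
Log2 of the CPM in each liver over the mean CPM of the 4 WT livers, for the 33 members (rows, grouped by role) in the 12 livers (columns). Most chaperone and isomerase genes, and Sel1l and Edem1 among the degradation genes, are blue in the SKO and DKO livers, meaning lower than WT. Sil1, Dnajb9, Dnajc10, Derl1, Edem2, Os9, Selenos and Xbp1 are mostly near or above WT, and the colours end at -2 and 2.

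Of the 11 Hsp70 and Hsp90 chaperones of the lumen and their partners, 7 fell in SKO and 6 in DKO livers, and 0 rose in either with TMM scaling, beside 15.4% and 4.39% of all genes lower. Without SKO liver 3, 8 fell in SKO livers, and without DKO liver 4, 8 fell and 1 rose in DKO livers, beside 17.5% and 18.4% of all genes. Hspa5 encodes BiP, the Hsp70 chaperone that binds nascent chains and holds the sensors of the response inactive, and it was at 525, 666, 671 and 589 CPM in the WT livers, 364, 334, 502 and 412 in the SKO livers and 315, 495, 253 and 342 in the DKO livers. All 8 KO livers were below the lowest WT liver, SKO liver 3 and DKO liver 2 being nearest to it. The log2 fold change was -0.59 ± 0.15 (adjusted p = 0.0115) in SKO and -0.79 ± 0.20 (adjusted p = 0.0397) in DKO livers against WT, with the SE and 4 livers per genotype here and below. Scaled by library size alone the SKO value was -0.41 (adjusted p = 0.0512, 8.35e-04 to 0.0512 over the alternatives), past the threshold no longer. In the DKO comparison the adjusted p-value rose above 0.05 without any of the WT livers and without DKO liver 1 or 3, and it was 0.00322 to 0.109 over the alternatives.

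Hsp90b1, which encodes GRP94, the Hsp90 chaperone of the lumen, did not pass the threshold in either comparison. It was at 473, 605, 597 and 539 CPM in the WT livers, 303, 326, 561 and 339.9 in the SKO livers and 265, 363, 225 and 479 in the DKO livers. SKO liver 3 and DKO liver 4 lay within the WT range and the other 6 KO livers lay below it. The values were -0.52 ± 0.19 (adjusted p = 0.0591) in SKO and -0.72 ± 0.23 (adjusted p = 0.0717) in DKO livers. Without SKO liver 3 the first was -0.76 (adjusted p = 0.00175, 0.00175 to 0.194 over the alternatives), and without DKO liver 4 the second was -0.95 ± 0.16 (adjusted p = 0.00106, 0.00106 to 0.174 over the alternatives). Its promoter was the only member promoter with 2 ERSE matches.

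Hyou1, which encodes GRP170, the nucleotide exchange factor of BiP, was at 129.6, 159, 153 and 119 CPM in the WT livers, 76.5, 59.3, 58.7 and 68.4 in the SKO livers and 73.7, 85.4, 49.2 and 57.6 in the DKO livers. No KO liver came near the lowest WT liver, and it fell by 1.08 ± 0.14 in SKO (adjusted p = 1.56e-04) and by 1.07 ± 0.19 in DKO livers (adjusted p = 0.0133) on the log2 scale. Without WT liver 2 the DKO value was -1.01 (adjusted p = 0.0530, 1.00e-05 to 0.0530 over the alternatives). Sil1, the other exchange factor of BiP, behaved differently, at 44.5 ± 1.41, 51.9 ± 10.3 and 44.2 ± 3.96 CPM in the WT, SKO and DKO groups (SD, n = 4). Its log2 fold change was 0.24 (adjusted p = 0.226) in SKO and 0.00 (adjusted p = 0.988) in DKO livers, neither past the threshold.

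The J-domain partners of BiP split. Dnajb11 (ERdj3), which delivers unfolded chains to BiP, was at 87.0, 97.4, 85.3 and 81.8 CPM in the WT livers, 47.5, 51.0, 55.6 and 44.4 in the SKO livers and 40.8, 44.9, 42.4 and 60.4 in the DKO livers. It was lower in every KO liver than in every WT liver, with -0.81 ± 0.12 (adjusted p = 3.04e-04) in SKO and -0.89 ± 0.14 (adjusted p = 0.0109) in DKO livers. The lncRNA Gm30505 overlaps Dnajb11 and had 10.7% of its counts. Dnajc3 (p58IPK), a cochaperone also known as an inhibitor of PERK, was at 254, 275, 296 and 249.98 CPM in the WT livers, 190.3, 163, 194 and 196 in the SKO livers and 163, 193, 135 and 226 in the DKO livers. These groups did not overlap either, and Dnajc3 fell in SKO livers, -0.52 ± 0.12 (adjusted p = 0.00600), with -0.58 ± 0.17 (adjusted p = 0.0568) in DKO livers and -0.71 ± 0.13 (adjusted p = 0.00190, 0.00190 to 0.142 over the alternatives) without DKO liver 4. Dnajb9 (ERdj4), which represses IRE1 and assists degradation, was at 60.9 ± 10.9, 76.8 ± 6.77 and 59.3 ± 7.72 CPM in the WT, SKO and DKO groups, with 0.35 (adjusted p = 0.0790) and -0.03 (adjusted p = 0.926) against WT. Dnajc10 (ERdj5), a reductase that takes part in degradation, was at 29.7 ± 1.99, 37.4 ± 9.06 and 37.1 ± 6.09 CPM in the WT, SKO and DKO groups, with 0.35 (adjusted p = 0.115) and 0.33 (adjusted p = 0.135). Neither passed the threshold, and both SKO values were above 0. Scaled by library size alone, Dnajb9, Dnajc10 and Sil1 were called higher in SKO livers, with 0.53 (adjusted p = 0.00859, 0.00859 to 0.242 over the alternatives), 0.52 (adjusted p = 0.0277, 0.0277 to 0.299 over the alternatives) and 0.41 (adjusted p = 0.0312, 0.0312 to 0.540 over the alternatives). The DKO value of Dnajc10 without DKO liver 4 was 0.42 ± 0.11 (adjusted p = 0.0116, 0.0116 to 0.309 over the alternatives).

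Sdf2l1, a cochaperone that works with Dnajb11, had the lowest fold change of the set in SKO livers when all livers were used, and was second to Derl3 without SKO liver 3, with -1.85 (adjusted p = 1.04e-04, 1.22e-06 to 0.0193 over the alternatives). Its level was 15.5, 17.5, 13.6 and 11.7 CPM in the WT livers, 3.07, 4.86, 8.49 and 3.96 in the SKO livers and 3.19, 3.64, 2.16 and 10.3 in the DKO livers. SKO liver 3 and DKO liver 4 stood above the other KO livers and below the lowest WT liver. The log2 fold change was -1.49 ± 0.28 (adjusted p = 0.00176) in SKO and -1.58 ± 0.43 (adjusted p = 0.0454) in DKO livers, and -2.27 ± 0.22 (adjusted p = 2.44e-05, 2.44e-05 to 0.118 over the alternatives) without DKO liver 4. Without any other single liver of the DKO comparison the call was lost, at adjusted p-values up to 0.118.

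The secreted chaperone-like protein Manf had 67.5, 78.2, 70.8 and 54.8 CPM in the WT livers, 31.1, 28.7, 40.2 and 35.6 in the SKO livers and 19.8, 33, 20.1 and 31.0 in the DKO livers. All KO livers were below all WT livers, with -0.99 ± 0.14 (adjusted p = 3.61e-04) in SKO and -1.38 ± 0.20 (adjusted p = 0.00883) in DKO livers. Manf overlaps Dcaf1 and Rbm15b in the table, whose counts were 92.8% and 46.2% of its own on average, and the strand setting of the counting is not given in the sources used here, so its counts are uncertain. Creld2, an ER-resident protein with isomerase activity, was at 26.6, 29.0, 32.7 and 25.2 CPM in the WT livers, 18.1, 18.5, 18.8 and 16.5 in the SKO livers and 15.0, 20.9, 15.4 and 18.1 in the DKO livers. It also fell without overlap, with -0.64 ± 0.12 (adjusted p = 0.00221) and -0.70 ± 0.14 (adjusted p = 0.0198). Its DKO call was lost without WT liver 1 or 2 or DKO liver 1 or 3, at adjusted p-values of 4.93e-04 to 0.0633 over the alternatives.

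**Figure D2:**
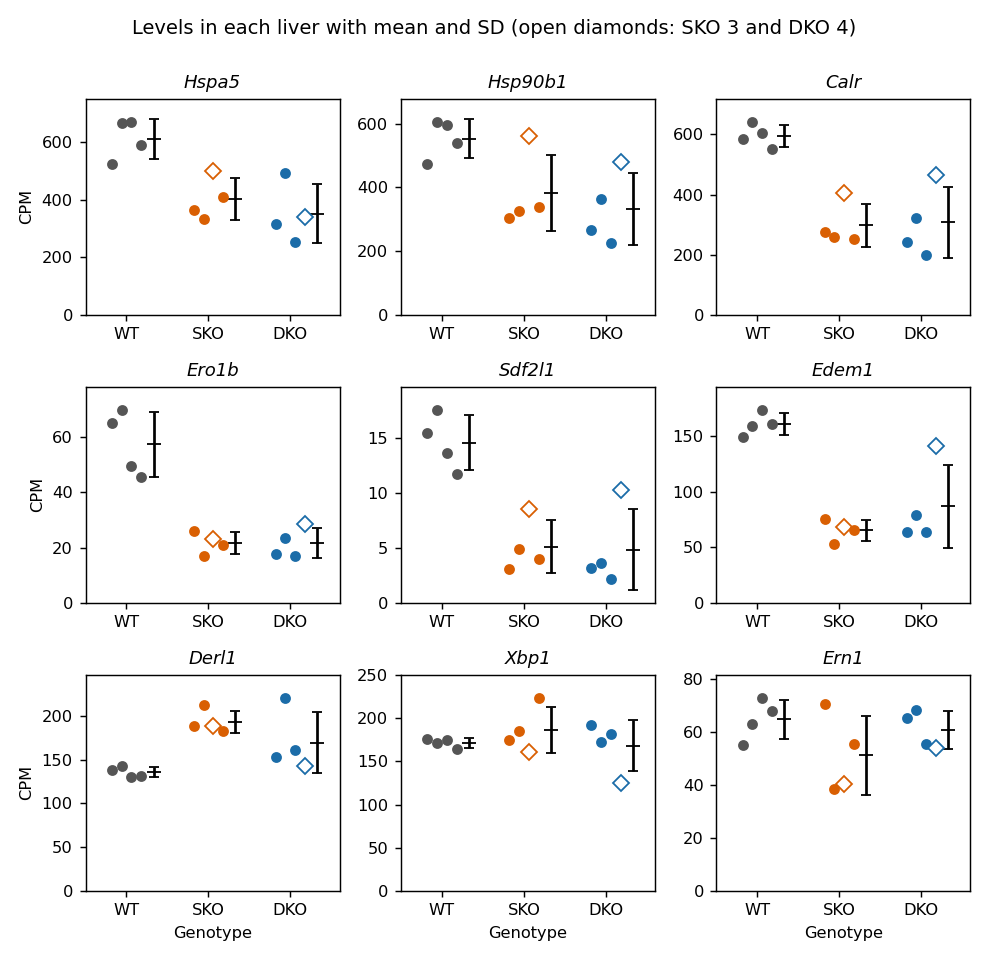
CPM of 9 members in each liver by genotype, with the mean and SD of the 4 livers at the right of each group. Hspa5, Calr, Ero1b, Sdf2l1 and Edem1 lie below the WT livers in all 8 KO livers, Hsp90b1 in 6 of them, Derl1 lies above WT in the SKO livers, and Xbp1 and Ern1 overlap; open diamonds mark SKO liver 3 and DKO liver 4, the livers with Xist counts.

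Among the disulfide isomerases and the oxidase, 4 of 5 fell in SKO and 2 of 5 in DKO livers, beside 15.4% and 4.39% of all genes. In DKO livers without DKO liver 4 it was 4 of 5, beside 17.5%. Pdia3 (ERp57), which works with the lectins on glycoproteins, was at 314, 374, 374 and 333 CPM in the WT livers, 171, 159, 259 and 172 in the SKO livers and 123, 164, 120.2 and 309.9 in the DKO livers. DKO liver 4 was just below the lowest WT liver, and the other KO livers were far lower. The log2 fold change was -0.86 ± 0.16 (adjusted p = 0.00190) in SKO and -0.95 ± 0.29 (adjusted p = 0.0635) in DKO livers, and -1.35 ± 0.14 (adjusted p = 3.02e-05, 3.02e-05 to 0.157 over the alternatives) without DKO liver 4. Pdia3 overlaps Catsper2, with 2.83% of its counts. Pdia4 (ERp72), another isomerase, was at 137, 180.2, 162 and 141 CPM in the WT livers, 82.5, 60.7, 105 and 68.2 in the SKO livers and 62.5, 84.7, 61.3 and 120.0 in the DKO livers. No KO liver reached the WT range, and it fell, with -0.95 ± 0.17 (adjusted p = 0.00138) in SKO and -0.90 ± 0.22 (adjusted p = 0.0333) in DKO livers. The DKO call was lost without any single liver but DKO liver 4.

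Pdia6 (P5), which also restrains IRE1, was at 139.8, 187, 166 and 143 CPM in the WT livers, 61.3, 70.6, 113 and 62.9 in the SKO livers and 50.9, 71.2, 50.7 and 179 in the DKO livers. The SKO livers were all below WT, while DKO liver 4 was within the WT range and more than the other DKO livers. It fell in SKO livers, -1.03 ± 0.19 (adjusted p = 0.00189), and had -0.84 ± 0.38 (adjusted p = 0.174) in DKO livers, or -1.46 ± 0.15 (adjusted p = 3.95e-05, 3.95e-05 to 0.357 over the alternatives) without DKO liver 4. Ero1b, the oxidase that passes oxidising equivalents to the isomerases, was at 65.0, 69.8, 49.6 and 45.5 CPM in the WT livers, 26.2, 16.8, 23.1 and 20.8 in the SKO livers and 17.8, 23.4, 17.0 and 28.7 in the DKO livers. The KO livers were all below the lowest WT liver, with -1.39 ± 0.18 (adjusted p = 1.46e-04) in SKO and -1.39 ± 0.21 (adjusted p = 0.00894) in DKO livers, or 2.62-fold and 2.63-fold lower. P4hb (PDI), the most abundant member, was at 1309 ± 102, 1154 ± 184 and 1105 ± 107 CPM in the WT, SKO and DKO groups (SD, n = 4), and its values of -0.17 (adjusted p = 0.426) and -0.23 (adjusted p = 0.301) did not pass the threshold. Its SKO value was 0.01 when scaled by library size alone.

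Both lectin chaperones, which hold glycoproteins until they fold, fell in SKO livers. In DKO livers 1 of them fell, and both fell without DKO liver 4. In these fits 15.4%, 4.39% and 17.5% of all genes were lower. Calr, the soluble lectin calreticulin, was at 586, 641, 603 and 551 CPM in the WT livers, 276, 258, 405 and 253 in the SKO livers and 244, 321, 199 and 465 in the DKO livers. SKO liver 3 and DKO liver 4 were again the highest of their groups and still below WT, and the log2 fold change was -0.99 ± 0.16 (adjusted p = 8.23e-04) in SKO and -0.94 ± 0.24 (adjusted p = 0.0393) in DKO livers. Without DKO liver 4 the latter was -1.22 ± 0.16 (adjusted p = 1.47e-04, 1.47e-04 to 0.104 over the alternatives), and without any other single liver it missed the threshold, with adjusted p-values up to 0.104. Canx, the membrane-bound calnexin, was at 235, 257, 295 and 241 CPM in the WT livers, 167, 164, 200 and 181 in the SKO livers and 154, 193, 139 and 249.9 in the DKO livers. All SKO livers were below WT, and DKO liver 4 was within the WT range. The values were -0.51 ± 0.12 (adjusted p = 0.00794), -0.47 ± 0.19 (adjusted p = 0.134) and, without DKO liver 4, -0.66 ± 0.14 (adjusted p = 0.00333, 0.00333 to 0.290 over the alternatives).

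Of the 10 genes of ER-associated degradation, 2 fell, 1 rose and 7 were not called in SKO livers, which is 30% called, near the 32.1% of all genes tested. Without SKO liver 3, 3 fell. In DKO livers 2 fell, or 20%, against 4.39% of all genes. It was 5 lower and 1 higher without DKO liver 4, against 17.5% and 18.4% of all genes. Edem1, a mannosidase-like protein that marks glycoproteins for degradation, was at 149, 159, 173 and 161 CPM in the WT livers, 75.3, 52.7, 68 and 65.3 in the SKO livers and 63.4, 78.7, 63.2 and 141 in the DKO livers. The SKO livers were all far below WT, and DKO liver 4 was near the WT livers. It fell in SKO livers, -1.28 ± 0.13 (adjusted p = 3.18e-05), which is 2.43-fold lower, and had -0.88 ± 0.25 (adjusted p = 0.0526) in DKO livers, or -1.22 ± 0.12 (adjusted p = 1.94e-05, 1.94e-05 to 0.138 over the alternatives) without DKO liver 4. Sel1l, the adaptor of the HRD1 ubiquitin ligase, was at 187, 208, 209.8 and 184 CPM in the WT livers, 121, 58.6, 117 and 92.5 in the SKO livers and 92.6, 100.4, 77.4 and 128 in the DKO livers. No KO liver reached the WT range, and SKO liver 2 was the lowest. It fell in both, with -1.004 ± 0.20 (adjusted p = 0.00250) in SKO and -0.97 ± 0.16 (adjusted p = 0.0115) in DKO livers.

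Derl1, a derlin of the retrotranslocation channel, was the only member to rise in SKO livers with TMM scaling, and it was at 139, 143, 131 and 132 CPM in the WT livers, 189, 212, 189 and 183 in the SKO livers and 154, 221, 162 and 143 in the DKO livers. All SKO livers and DKO livers 1 to 3 were above all WT livers, and DKO liver 4 was at the level of the highest WT liver. The log2 fold change was 0.52 ± 0.11 (adjusted p = 0.00366) in SKO and 0.33 ± 0.15 (adjusted p = 0.174) in DKO livers, and 0.40 ± 0.13 (adjusted p = 0.0342, 0.0342 to 0.396 over the alternatives) without DKO liver 4. Derl2, its close relative, was at 83.8 ± 8.50, 66.5 ± 10.9 and 73.4 ± 6.86 CPM in the WT, SKO and DKO groups, with -0.32 (adjusted p = 0.106) and -0.18 (adjusted p = 0.347), and overlaps Mis12, with 17.9% of its counts. Derl3, the derlin known to be induced by the response, had 47, 68, 16 and 41 counts in the WT livers, 7, 18, 136 and 4 in the SKO livers and 4, 3, 7 and 7 in the DKO livers. The 136 counts of SKO liver 3 exceeded every WT liver while the other SKO livers were below the WT range in CPM. The fold change was -0.20 ± 0.82 (adjusted p = 0.883) in SKO livers, -2.19 (adjusted p = 0.0110, 0.0110 to 0.993 over the alternatives) without SKO liver 3, and -3.13 ± 0.49 (adjusted p = 0.00982) in DKO livers, and at these few counts its size is imprecise. The 5 exocrine pancreas markers summed to 0.196 to 4.76 CPM in the WT livers, against 0 to 0.223 in the SKO group and 0 to 0.324 in the DKO group, with 0 counts in SKO liver 3, and the 7 B and plasma cell markers summed to 5.75 to 13.4 CPM in the WT group, 5.82 to 15.3 in the SKO group and 4.12 to 12.2 in the DKO group. Their highest sums were in SKO liver 3, DKO liver 4 and WT liver 3, the last being the WT liver with the fewest Derl3 counts. Their part in the Derl3 values was not tested.

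The other degradation genes did not pass the threshold in either comparison with all livers. Herpud1, a ubiquitin-like scaffold of the HRD1 complex, varied widely within WT, from 344 to 1015 CPM, the latter in WT liver 3, and ranged from 211 to 456 in SKO and from 165 to 551 in DKO livers, with -0.64 (adjusted p = 0.174) and -0.76 (adjusted p = 0.297). Without DKO liver 4 the latter was -1.17 ± 0.40 (adjusted p = 0.0413, 0.0413 to 0.693 over the alternatives). Syvn1, the ligase HRD1 itself, had 75.6 ± 10.1, 58.2 ± 5.25 and 61.1 ± 6.41 CPM in the WT, SKO and DKO groups and -0.36 (adjusted p = 0.0504) and -0.29 (adjusted p = 0.167), and DESeq2 and RLE scaling called it in SKO livers. It overlaps Mrpl49, with 35.4% of its counts. Edem2, a mannosidase of the same family as Edem1, Os9, a lectin that recognises trimmed glycans, and Selenos, which links the complex to the ATPase p97, had values of 0.07, 0.05 and -0.03 in SKO and -0.15, 0.16 and -0.26 in DKO livers. Selenos was called lower in DKO livers without DKO liver 4, with -0.36 ± 0.12 (adjusted p = 0.0423, 0.0423 to 0.571 over the alternatives). The intervals were -0.21 to 0.34, -0.21 to 0.31 and -0.28 to 0.22 in SKO livers.

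The sensor and the transcription factor of the IRE1 branch did not pass the threshold. Ern1, which encodes IRE1, was at 55.3, 63.0, 72.9 and 68 CPM in the WT livers, 70.6, 38.6, 40.2 and 55.6 in the SKO livers and 65.2, 68.5, 55.5 and 54.1 in the DKO livers. SKO livers 2 and 3 were below the WT livers and SKO livers 1 and 4 were not, and the DKO livers overlapped WT. The values were -0.32 ± 0.19 (adjusted p = 0.219) in SKO and -0.08 ± 0.13 (adjusted p = 0.724) in DKO livers, and without SKO liver 1 the first was -0.52 (adjusted p = 0.0307, 0.0307 to 0.589 over the alternatives). Xbp1, the factor whose mRNA IRE1 splices, was at 177, 171, 175 and 164 CPM in the WT livers, 175, 185, 161 and 223 in the SKO livers and 192, 173, 182 and 125 in the DKO livers. The highest value was that of SKO liver 4 and the lowest that of DKO liver 4, and the groups overlapped. Its log2 fold change was 0.13 ± 0.13 (adjusted p = 0.480) in SKO and -0.02 ± 0.15 (adjusted p = 0.945) in DKO livers, with 95% intervals of -0.15 to 0.41 and -0.35 to 0.31.

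Both translocon genes fell in SKO livers, 0 fell in DKO livers and both fell there without DKO liver 4. The shares of all genes lower in these fits were 15.4%, 4.39% and 17.5%. Sec61b, a subunit of the protein-conducting channel, was at 27.0, 28.0, 29.5 and 28.7 CPM in the WT livers, 12.6, 15.6, 15.6 and 17.6 in the SKO livers and 15.4, 16.2, 15.7 and 35.1 in the DKO livers. The SKO livers and DKO livers 1 to 3 were all below WT, and DKO liver 4 was above every WT liver. Sec61b fell in SKO livers, -0.87 ± 0.13 (adjusted p = 3.79e-04), and had -0.45 ± 0.26 (adjusted p = 0.279) in DKO livers, or -0.84 ± 0.10 (adjusted p = 9.20e-05, 9.20e-05 to 0.510 over the alternatives) without DKO liver 4. Ssr1, a subunit of the translocon-associated TRAP complex, was at 76.1, 81.7, 84.3 and 70.6 CPM in the WT livers, 49.3, 55.3, 63.5 and 68 in the SKO livers and 49.4, 58.9, 51.4 and 76.5 in the DKO livers. It fell in SKO livers, -0.39 ± 0.13 (adjusted p = 0.0341), a call that was lost under library size scaling, without the filter on low counts, in the fit of all 12 livers, with the replicate block and without WT liver 1, 2 or 3 or SKO liver 1 or 2. In DKO livers it had -0.39 ± 0.15 (adjusted p = 0.119), and -0.55 ± 0.11 (adjusted p = 0.00222, 0.00222 to 0.272 over the alternatives) without DKO liver 4. Wfs1, an ER membrane protein tied to calcium and to ATF6 turnover, had 10.3 ± 1.07, 9.81 ± 1.46 and 8.63 ± 1.44 CPM in the WT, SKO and DKO groups, with -0.06 (adjusted p = 0.825) and -0.24 (adjusted p = 0.361).

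**Figure D3:**
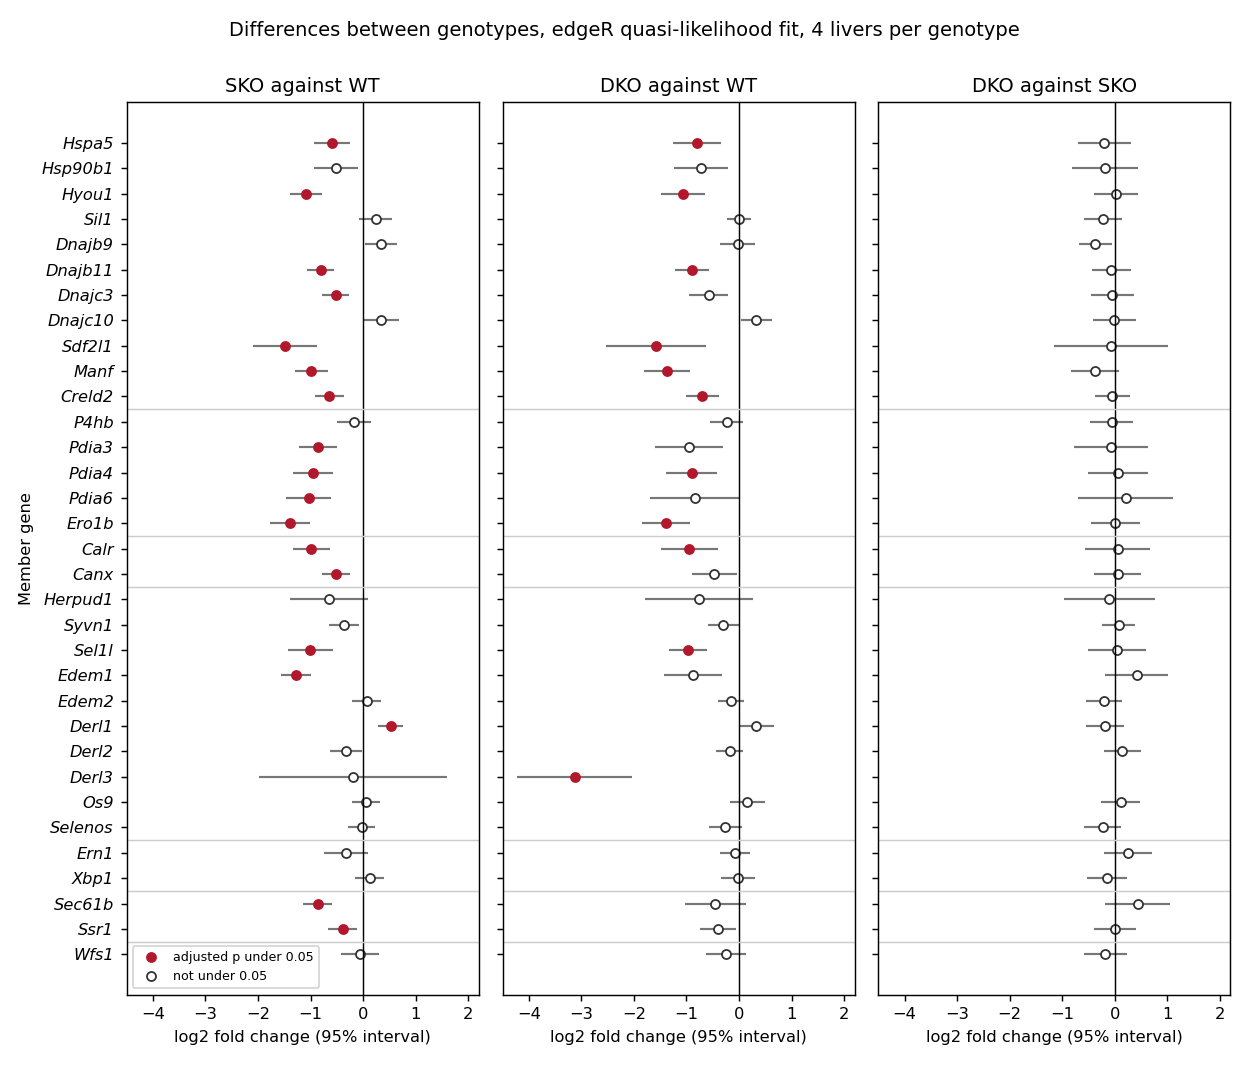
Log2 fold change with its 95% interval for each member in the 3 comparisons, filled where the adjusted p-value was under 0.05. In SKO against WT 17 members are filled to the left of 0 and 1 to the right, in DKO against WT 11 to the left, and in DKO against SKO 0 are filled and Derl3 was not tested.

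Against SKO livers, DKO livers had 0 members past the threshold of 32 tested, as Derl3 did not pass the filter on low counts. Of all 14363 genes, 3 were called, which is 0.0209%, with 0.00696% higher and 0.0139% lower, and DESeq2 called 0 members. At an unadjusted p-value under 0.05 there was 1 member, Dnajb9, with -0.37 ± 0.14 (adjusted p = 0.701). It was lower in all 4 DKO livers than in the 4 SKO livers. Over all genes, 6.49% passed the unadjusted threshold in either direction and 1.69% lay apart below. In 14 members the fold change was above 0 and in 18 below, with a median of -0.05, and of -0.17 without DKO liver 4. That liver had 0.270 CPM of Atf3, against 7.92 to 13.6 in the other DKO livers. The 95% interval was -0.70 to 0.30 for Hspa5, -0.82 to 0.44 for Hsp90b1, -0.57 to 0.67 for Calr, -0.84 to 0.07 for Manf and -0.53 to 0.24 for Xbp1. For 28 of the 32 members the interval lay between -1 and 1, and for Sdf2l1, Pdia6, Edem1 and Sec61b it reached beyond, from -1.17 to 1.02 for Sdf2l1. Differences within these intervals were not detectable with 4 livers per genotype.

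The members spanned a wide range of abundance in WT livers, compared here as CPM per kb of gene length. P4hb was highest with 458 CPM per kb (range 405 to 480.4), followed by Herpud1 with 235 CPM per kb (range 148 to 435), Calr with 207 CPM per kb (range 191 to 223), Hspa5 with 145 CPM per kb (range 124 to 159) and Hsp90b1 with 137 CPM per kb (range 117 to 150.1). Of these, P4hb and Herpud1, Herpud1 and Calr, and Hspa5 and Hsp90b1 overlapped between livers, and Calr and Hspa5 did not. Wfs1 with 2.72 CPM per kb (range 2.36 to 3.04) and Derl3 with 1.26 CPM per kb (range 0.524 to 2.17) were lowest. Of the 10 members with an ERSE, 7 fell in SKO and 5 in DKO livers, with medians of -0.55 and -0.76, and of the 19 with a promoter entry and no ERSE, 8 and 4 fell, with medians of -0.32 and -0.26. The 19 include Herpud1 and Dnajb11, which held ERSE-II, and Dnajb11 fell in both comparisons. Among all genes tested, 15.4% were lower in SKO and 4.39% in DKO livers. The division by ERSE is described without a test.

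A further 142 ER genes in 7 lists were examined. Of the 10 genes of the PERK branch and ATF4 targets, 5 rose, 0 fell and 5 were not called in SKO livers, with a list median of 0.52, beside 16.7% of all genes higher. In DKO livers 1 rose, with a median of 0.39, beside 6.06% of all genes. Chac1, a glutathione-degrading target of ATF4, was at 1.58 ± 0.592, 6.90 ± 2.91 and 5.51 ± 2.46 CPM in the WT, SKO and DKO groups (SD, n = 4), with 2.15 ± 0.36 (adjusted p = 8.39e-04) and 1.82 ± 0.39 (adjusted p = 0.0244) against WT. Atf4, which encodes the factor itself, was at 83.8 ± 5.37, 134 ± 26.6 and 122 ± 34.1 CPM in the WT, SKO and DKO groups, and it had 0.70 ± 0.14 (adjusted p = 0.00346) and 0.55 ± 0.21 (adjusted p = 0.111). DKO liver 4, at 70.8 CPM, was below every WT liver and DKO livers 1 to 3 were above them, and without it the DKO value was 0.74 (adjusted p = 1.49e-04). Ddit3 (CHOP), a target tied to cell death, had 0.81 ± 0.22 (adjusted p = 0.0136) and 0.59 ± 0.33 (adjusted p = 0.265), and Eif2s1, the subunit that PERK phosphorylates, 0.50 ± 0.16 (adjusted p = 0.0285) and 0.31 ± 0.16 (adjusted p = 0.219). Without DKO liver 4, 7 of the 10 rose in DKO livers and 0 fell, while 18.4% of all genes were then higher and 17.5% lower.

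Of 15 sensors, proteases and factors of the response, 2 rose and 1 fell in SKO livers, with a median of -0.08, and 1 rose in DKO livers, with a median of 0.09. These shares of 13.3% higher and 6.67% lower in SKO and 6.67% higher in DKO livers were near or below those of all genes. In DKO livers 2 rose and 2 fell without DKO liver 4, beside 18.4% and 17.5% of all genes. Eif2ak3, which encodes PERK, was at 13.7 ± 4.24, 44.6 ± 6.42 and 41.8 ± 19.8 CPM in the WT, SKO and DKO groups. Both KO groups were higher than WT, with 1.72 ± 0.21 (adjusted p = 1.03e-04) for SKO and 1.62 ± 0.38 (adjusted p = 0.0295) for DKO. DKO liver 4, at 16.7 CPM, lay within the WT range of 8.96 to 17.7, and the value without it was 1.89 (adjusted p = 1.26e-04). Atf6, the sensor that is cleaved in the Golgi, had 0.06 ± 0.14 (adjusted p = 0.796) and 0.09 ± 0.18 (adjusted p = 0.786). Creb3, an ER-bound factor of the ATF6 type, rose in SKO livers, 1.01 ± 0.17 (adjusted p = 0.00107), with 0.69 ± 0.20 (adjusted p = 0.0584) in DKO livers, and Creb3l2, another, fell, -0.51 ± 0.18 (adjusted p = 0.0439), with -0.55 ± 0.16 (adjusted p = 0.0551).

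The other folding enzymes, 27 genes, had 7 lower and 2 higher in SKO livers (median -0.20) and 2 lower and 2 higher in DKO livers. Ppib, the lumenal cyclophilin B, had -0.68 (adjusted p = 0.00216) in SKO livers, Cnpy3 -0.56 (adjusted p = 0.00416), Prdx4, a peroxiredoxin of the lumen, -0.62 (adjusted p = 0.00469) and Pdia5 -0.85 (adjusted p = 0.00922). Of 16 genes of N-glycosylation and glycan trimming, 6 fell and 3 rose in SKO livers (median -0.31), and 0 were called in DKO livers. Magt1, an oxidoreductase subunit of the oligosaccharyltransferase, had -1.01 (adjusted p = 1.77e-04) and Uggt1, the folding sensor that reglucosylates glycoproteins, -0.59 (adjusted p = 0.00378). Without DKO liver 4, 11 of the folding enzymes and 8 of the glycosylation genes were lower in DKO livers, and 2 and 1 were higher, beside 17.5% lower and 18.4% higher of all genes.

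For entry into the ER, 6 of 22 genes fell and 2 rose in SKO livers, and 2 fell in DKO livers. Tram1, a membrane protein beside the translocon, had -0.84 (adjusted p = 5.31e-04), the signal peptidase subunits Spcs3 and Sec11c -0.80 (adjusted p = 7.25e-04) and -0.71 (adjusted p = 0.00374), and the TRAP subunit Ssr3 -0.56 (adjusted p = 0.00350). The ER to Golgi list had 4 lower and 3 higher of 26 tested, with Lman1, a cargo lectin, at -0.81 (adjusted p = 6.57e-04) and Sec24b, a coat subunit, at 0.59 (adjusted p = 0.00262), and 0 called in DKO livers. Of the 25 other degradation genes, 3 fell and 5 rose in SKO livers, among them the ligase Marchf6 with -0.76 (adjusted p = 0.00482) and the p97 cofactor Nploc4 with 0.55 (adjusted p = 0.00473), and 1 fell and 1 rose in DKO livers. Without DKO liver 4, the lower and higher counts in DKO livers were 8 and 1 for entry. They were 6 and 6 for ER to Golgi transport and 7 and 5 for the other degradation genes. In that fit 17.5% of all genes were lower and 18.4% higher. With all livers, 15.4% of all genes were lower and 16.7% higher in SKO livers, and 4.39% and 6.06% in DKO livers. The shares called in either direction in SKO livers were 33.3% for the folding enzymes, 36.4% for ER entry, 26.9% for ER to Golgi transport and 32% for the other degradation genes, against 32.1% of all genes. For N-glycosylation it was 56.3%. Against SKO livers, 0 genes of the 7 lists were called in DKO livers.

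**Figure D4:**
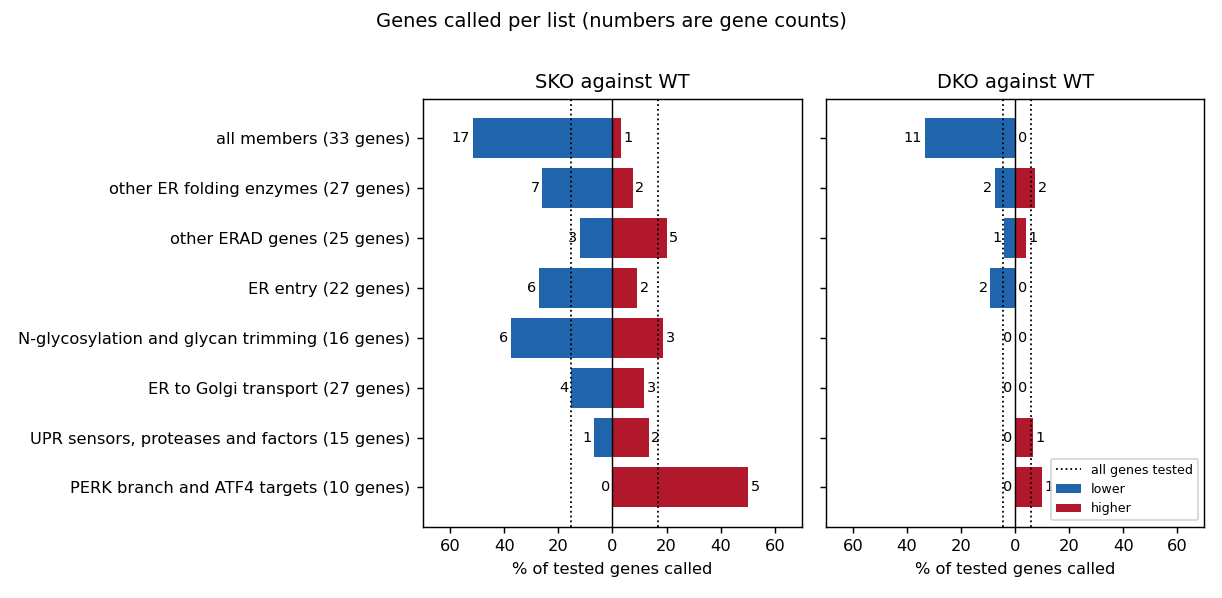
Percentage of tested genes called lower (blue, left of 0) and higher (red, right of 0) for the 33 members and the 7 other lists, with the number of genes beside each bar and dotted lines at the percentages over all genes tested. In SKO against WT the members have 17 lower and 1 higher and the PERK and ATF4 list 0 lower and 5 higher.

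Levels of cell type markers differed between the groups as well. Of the 6 hepatocyte markers, Alb, Ttr and Apob were lower in SKO livers, with -0.89 (adjusted p = 0.0115), -0.89 (adjusted p = 3.13e-04) and -0.58 (adjusted p = 0.0468). Serpina1e had -1.73 (adjusted p = 0.0625), with all SKO livers below all WT livers, and Apoa1 and Cps1 did not pass the threshold either. The 4 cholangiocyte markers summed to 22.3 to 29.9 CPM for the WT livers, 6.14 to 13.6 for the SKO livers and 7.34 to 30.8 for the DKO livers, and the 6 stellate cell and fibroblast markers to 168 to 197, 227 to 318 and 209.6 to 274. Those of macrophages (189 to 373, 181 to 390.1 and 111 to 385) and endothelial cells (138 to 299, 179 to 239 and 163 to 243) overlapped in their sums, as did those of T and NK cells, neutrophils and erythroid cells. The cholangiocyte marker Spp1 fell in SKO livers, -1.44 (adjusted p = 6.58e-04), and the fibroblast marker Dcn rose, 0.61 (adjusted p = 0.00630). Dcn, at 117 CPM in WT and 177 in SKO livers, made up most of the sum of its list. The other 5 markers of that list were not called. Col1a1 was at -0.32 and Col3a1 at -0.31, and Lrat was at 0.27, Reln at 0.40 and Pdgfrb at 0.29. The macrophage marker Cd68 rose from 7.98 to 38.5 CPM in SKO livers, 2.28 ± 0.28 on the log2 scale (adjusted p = 1.07e-04). All SKO livers were above all WT livers in it. The other 5 macrophage markers tested were not called. Lyz2 was at -0.44 and Clec4f at -0.14, and Adgre1 was at 0.11, Cd5l at 0.03 and Vsig4 at 0.02. Cd68 had 1.09 ± 0.34 (adjusted p = 0.0690) in DKO livers. Of the erythroid markers, the globins Hba-a1 and Hbb-bs rose in SKO livers, with 1.27 (adjusted p = 0.0211) and 1.33 (adjusted p = 0.0291), and Alas2 fell in SKO and DKO livers, with -1.23 (adjusted p = 0.0181) in SKO and -0.92 (adjusted p = 0.0378) in DKO livers. More markers were called in DKO livers against WT without DKO liver 4, the KO liver in which the members were nearest to WT. Of the hepatocyte markers, Alb had -1.14 (adjusted p = 9.74e-05), Ttr -0.76 (adjusted p = 5.20e-04), Apob -0.62 (adjusted p = 0.0188) and Serpina1e -1.36 (adjusted p = 0.00556). Of the macrophage markers, Clec4f had -0.76 (adjusted p = 0.0117), Cd5l -1.13 (adjusted p = 0.00750), Vsig4 -1.10 (adjusted p = 0.0123), Lyz2 -1.18 (adjusted p = 0.00825) and Cd68 1.28 (adjusted p = 0.00527), and the summed level of the list in DKO livers 1 to 3 was below every WT liver. Spp1 had -1.19 (adjusted p = 0.00276) and Dcn 0.43 (adjusted p = 0.0150). Ribosomal RNA took 0.506 to 1.46% of the counts of WT livers, 0.877 to 1.56% for SKO livers and 1.45 to 2.86% for DKO livers. The part of any of these in the members' differences was not tested.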

How the data were processed

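Livers of 24 h-fasted mice, 4 per genotype, were analysed by RNA-seq. Per the labels, RNA was extracted with TRIzol and a column kit, and the submitters' processing notes name HISAT2 and the build GRCm38 (mm10). The values used are the read counts per gene deposited by the authors, without normalization, whereas the gene coordinates in their table match GRCm39, so they were used only to find genes that overlap in that table and are not printed. The counting tool and strand setting are not given in the sources used here. The deposited FPKM table and the authors' tables of fold changes and p-values were not used. Promoters came from RefSeq (GRCm38.p6).

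Genes were filtered with filterByExpr, scaled by TMM and tested with edgeR's quasi-likelihood test (edgeR 4.0.16, R 4.3.3) on the 8 livers of each comparison, with Benjamini-Hochberg adjustment over all genes tested and a threshold of 0.05. Log2 fold changes are given with the SE, and 95% intervals use edgeR's degrees of freedom. Nothing in the labels says more of the replicates than that they are separate livers, so the p-values measure the spread between these livers. The script was tested on simulated data, and no library pair was a duplicate, as the lowest chi-square per degree of freedom was 20.6. Members were described per liver where they were called against WT in either comparison, together with Hsp90b1, Xbp1 and Ern1. From each other list up to 4 called genes with the smallest p-values were named, and Atf6, Eif2ak3, Atf4 and Ddit3 always. The members and lists were chosen with earlier results of these data known. Alternatives were DESeq2 1.42.0, RLE and library size scaling, other filters, a fit of all 12 livers, the replicate number as a block, the livers with Y-linked counts alone, and leaving out each liver in turn.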

Additional observations from a re-analysis of the deposited data

Results flagged for a closer look

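In 10 of 102 groups of 4 livers, the CPM of 1 liver was separated from the nearest of the others by more than Dixon's 95% critical share of the whole range. Chance alone gives about 1 in 20 such groups, which is 5.1 of 102. SKO liver 3, 1 of the 2 livers with Xist counts, was the high liver in 4 of them. It had 561 CPM of Hsp90b1 against 303 to 339.95 in the other SKO livers, 259 of Pdia3 against 159 to 172, 405 of Calr against 253 to 276, and 7.04 of Derl3 against 0.223 to 0.911. DKO liver 4, the other such liver, had 179 CPM of Pdia6 against 50.7 to 71.2 in the other DKO livers and 35.1 of Sec61b against 15.4 to 16.2. The remaining values were in other livers. SKO liver 2 was low for Dnajc3, with 163 CPM against 190.3 to 196, and SKO liver 4 was high for Dnajc10, with 50.9 against 31.8 to 34.4. WT liver 1 was low for P4hb, with 1157 CPM against 1351 to 1374, and WT liver 3 was high for Edem2, with 43.8 against 38.7 to 39.4.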

How the results depend on the processing

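The members' count of calls in SKO against WT stayed within 1.5 times of 18 under every alternative, 17 to 20 with single livers left out, and 16 of the 18 genes were called in all 17 settings. Their median of -0.52 was -0.34 when scaled by library size alone, where the median of all genes was 0.20, was -0.63 without SKO liver 3, which is the same as using the livers with Y-linked counts alone, and ranged from -0.63 to -0.46 with single livers left out. In DKO against WT the count of 11 ranged from 5 to 23 with single livers left out, beside 1.63 to 35.9% of all genes. The count was 23 with the livers with Y-linked counts alone, and the members' median ranged from -0.72 to -0.43. Dnajb11, Manf, Ero1b, Sel1l and Derl3 were called there in all 17 settings. With the replicate block, the calls were 18, 6 and 0 in SKO against WT, DKO against WT and DKO against SKO. Livers of the same number did not deviate together, with correlations from -0.38 to 0.12, and 0 livers correlated best with their own number. The cause of these shifts was not tested. No call turned its direction. Of members past no threshold, the sign changed with the scaling for P4hb, Selenos and Wfs1 in SKO against WT, for Sil1, Dnajb9, Edem2, Ern1 and Xbp1 in DKO against WT, and for Ero1b and Ssr1 in DKO against SKO.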
